A study of Homo sapiens with 4 samples.

Results

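The clustered protocadherins on chromosome 5 were examined in RNA-Seq counts of human prostate cancer cells with and without UGT2B17. They were defined as the protein-coding genes whose symbols start with PCDHA, PCDHB or PCDHG, which gave 53 of the 60880 genes counted: 15 PCDHA, 16 PCDHB and 22 PCDHG genes. They lie within chr5:140165721-140892544 of GRCh37, all on the plus strand, over 727 kb. The family was chosen by its read counts in LN95(KO) against LNCaP95, where neighbouring genes here were lower, so that comparison describes the members and no test of it is given for them. LNCaP95 is an androgen-independent subline of LNCaP, and LN95(KO) is its derivative with UGT2B17, an androgen-glucuronidating enzyme, knocked out by CRISPR. There were 2 libraries of LNCaP95 (replicates 1 and 2) and 2 of LN95(KO) (replicates 3 and 4), from untreated cells in RPMI1640 with charcoal-stripped serum, with RNA selected by Oligo(dT). LN95 is the line named by the labels for every library, but the series text names LNCaP for the knockout. How many knockout clones were used, and whether replicates came from separate cultures, is not given in the sources used here, so the spread between libraries may be technical.

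Clustered protocadherins are cadherin-like membrane proteins best known from neurons, where each cell makes its own combination of them and where like proteins bind each other across cell contacts. In the PCDHA and PCDHG subclusters, each gene is a large variable exon with its own promoter, spliced to constant exons that the subcluster shares and that encode a common cytoplasmic end. PCDHB genes have no constant exons, and each is in essence a single-exon gene. Most promoters carry a conserved element around the letters CGCTG, and the insulator protein CTCF together with cohesin loops chosen promoters to distant enhancers, while DNA methylation keeps others silent. The last genes of PCDHA and PCDHG, the C types, differ in sequence and are used more evenly among cells.

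The promoters are shown first, since each member has its own and since the stretch around CGCTG is the part most of them share. RefSeq promoter sequences (250 bases before to 50 bases after the start, GRCh38.p14) were held for 47 of the 53 members. The other 6 (PCDHA3, PCDHA13, PCDHB6, PCDHB11, PCDHGA12 and PCDHGC5) had no entry. CGCTG was found on either strand in 41 of 47 promoters, or 87.2%, and in 47.8% of all 27305 promoters. On the coding strand and between 100 and 30 bases before the start, it was found in 35 of 47, or 74.5%, against 9.27% of all promoters. That count was 7 of 13 in PCDHA, 10 of 14 in PCDHB and 18 of 20 in PCDHG. Windows of 11 members follow, with each CGCTG on the printed strand in capitals, and each was placed by its only exact match on chromosome 5 of GRCh37, plus strand. They were picked only among members with CGCTG between 100 and 30 bases before the start. The aim was to set members that were much lower in LN95(KO) beside members that were not.

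PCDHB2, chr5:140474121-140474165: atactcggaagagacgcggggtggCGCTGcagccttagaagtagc
PCDHB16, chr5:140561877-140561921: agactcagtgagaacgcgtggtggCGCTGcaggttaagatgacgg
PCDHB9, chr5:140566640-140566684: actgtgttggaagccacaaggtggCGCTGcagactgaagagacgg
PCDHB10, chr5:140571864-140571908: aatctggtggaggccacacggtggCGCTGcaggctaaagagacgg
PCDHB12, chr5:140588207-140588251: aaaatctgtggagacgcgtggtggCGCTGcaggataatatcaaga
PCDHB13, chr5:140593429-140593473: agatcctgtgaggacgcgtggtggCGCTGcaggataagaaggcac
PCDHB15, chr5:140624874-140624918: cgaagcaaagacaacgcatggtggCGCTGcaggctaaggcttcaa
PCDHGA1, chr5:140709962-140710006: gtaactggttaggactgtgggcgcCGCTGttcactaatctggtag
PCDHGA7, chr5:140762208-140762252: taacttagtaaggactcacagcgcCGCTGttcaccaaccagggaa
PCDHGB4, chr5:140767176-140767220: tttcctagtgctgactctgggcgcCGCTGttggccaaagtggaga
PCDHGC3, chr5:140855458-140855502: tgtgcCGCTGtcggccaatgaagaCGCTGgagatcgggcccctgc

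The PCDHB windows read ggtggCGCTGcag in all 7 cases, and PCDHGA1, PCDHGA7 and PCDHGB4 read gcgcCGCTGtt. The PCDHGC3 window holds CGCTG in 2 copies, starting 70 and 51 bases before the start. Among fitted members with a promoter entry, CGCTG stood in that stretch in 12 of the 14 that were lower past the thresholds given below and in 13 of the other 17. PCDHB9 and PCDHB10, which are neighbours, read alike on both sides of the capitals. A match of letters is a description of the sequence, and no binding was measured here. The promoter of PCDHB15, the PCDHB gene with the second-largest difference, is shown whole (chr5:140624713-140625012 of GRCh37, plus strand), with CGCTG in capitals starting 65 bases before the start.

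PCDHB15: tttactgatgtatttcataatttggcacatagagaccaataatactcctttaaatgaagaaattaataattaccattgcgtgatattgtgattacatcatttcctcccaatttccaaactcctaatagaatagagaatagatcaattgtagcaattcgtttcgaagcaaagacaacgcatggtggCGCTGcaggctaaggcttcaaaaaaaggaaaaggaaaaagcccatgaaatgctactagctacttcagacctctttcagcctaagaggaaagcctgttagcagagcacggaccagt

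The libraries held 17330338 to 18813193 gene reads. A count of 0 allows up to 3 reads, or 0.159 to 0.173 CPM (counts scaled to library size with TMM factors). UGT2B17 had 2788 and 2748 reads in LNCaP95, against 21 and 20 in LN95(KO), lower in the libraries labelled as knockout. Reads that did not align made up 3.85% and 3.96% of entries in LNCaP95 but 8.05% and 7.71% in LN95(KO). All 10 luminal prostate markers were detected, with a summed level of 3050 and 3053 CPM against 4032 and 3863 CPM. Of 13 neuronal and neuroendocrine markers, CHGA and STMN2 were at 0 in all libraries and the summed level was 57.8 and 57.9 against 55.1 and 56.7 CPM. Within that list, ENO2 (875, 835, 223 and 217 reads) and NCAM1 (19, 32, 0 and 1) were lower in LN95(KO), and MAP2 (41, 60, 702 and 768) was higher. The 9 stromal markers summed to 34.6 to 42.0 CPM, with DCN and PDGFRA at 0. Within it, LUM (24, 19, 0 and 0 reads) was lower and PDGFRB (22, 18, 44 and 44) higher in LN95(KO), both past the thresholds. The part of these differences in the protocadherin values was not tested, and in bulk RNA fewer cells making a transcript cannot be told apart from less transcript per cell.

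How the reads were counted sets what each member's value means. The counter drops a read that lies on exons of more than 1 gene. All 15 PCDHA genes share 2866 exon bases in 3 blocks and all 22 PCDHG genes share 2177 bases in 3 blocks, so reads of these constant exons were left out and a member's count comes from its own variable exon. PCDHA1 keeps only 7 exon bases of its own, and its count says nothing of its transcription. Strand was not used, so reads of overlapping antisense transcripts cannot be separated. Close copies are a further limit. In the bases that a PCDHB gene shares with no other gene, the part of 100-base windows found again elsewhere in the clusters was largest in PCDHB8 (25.5%), PCDHB10 (18.6%), PCDHB2 (17.3%) and PCDHB13 (15.1%).

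Clustered protocadherin reads were fewer in LN95(KO). Summed over the 53 members they numbered 3718 and 3657 in LNCaP95, against 2032 and 2182 in LN95(KO), which is 201 ± 1.26 against 117 ± 3.37 CPM (mean ± SD, n = 2 libraries in each group here and for all values below) and 58.4% of the LNCaP95 level. The 3 subclusters took unequal parts in this. PCDHA went from 1.96 ± 0.143 to 0.306 ± 0.0327 CPM, a log2 ratio of -2.68. PCDHB went from 125 ± 1.32 to 55.7 ± 1.16 CPM, a log2 ratio of -1.16. PCDHG went from 73.8 ± 0.208 to 61.2 ± 4.50 CPM, a log2 ratio of -0.27. PCDHB thus made up 62.2% of the members' reads in LNCaP95 and 47.5% in LN95(KO), and PCDHG 36.8% and 52.2%.

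Of the 53 members, 48 had at least 1 read, 33 had enough reads to be fitted and 20 did not. PCDHA4, PCDHA8, PCDHA9, PCDHA11 and PCDHA13 had 0 reads in all 4 libraries. With the thresholds set at an adjusted p of 0.05 and a 2-fold difference in edgeR, 16 members were lower in LN95(KO) and 1 was higher. Over all 15626 genes fitted, 18.0% passed these thresholds, 9.13% lower and 8.86% higher. Both LN95(KO) libraries were below both LNCaP95 libraries in 23 of the 33 members and above them in 4, while over all fitted genes these shares were 39.9% and 39.8%. The median log2 fold change of the 33 was -0.83, against -0.01 over all fitted genes. Since the members were chosen on this comparison, these counts are a description. The lower members were 1 of 1 PCDHA gene fitted, 10 of 15 PCDHB genes and 5 of 17 PCDHG genes. In 11 of the 16, that held under all 9 other settings tried, and the exceptions were PCDHB1, PCDHB3, PCDHB4, PCDHGA11 and PCDHGA12.

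**Figure D1:**
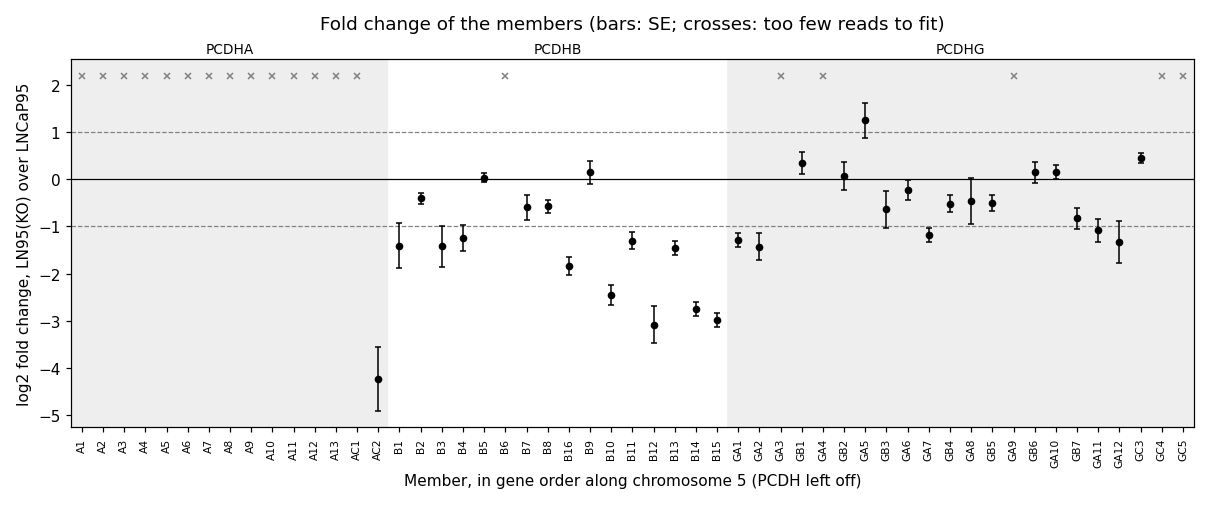
Log2 fold change of LN95(KO) over LNCaP95 (y axis, bars are approximate standard errors) for the 33 fitted members in gene order (x axis). Crosses mark the 20 members that had too few reads, and dashed lines a 2-fold difference. The values are lowest at PCDHAC2, PCDHB12, PCDHB15, PCDHB14 and PCDHB10, and lie on both sides of 0 in PCDHG.

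The largest difference in reads lay at the end of PCDHB, in the stretch from PCDHB10 to PCDHB15, a division made after the values were seen. These 6 neighbours together had 1259 and 1289 reads in LNCaP95, against 293 and 245 in LN95(KO), or 69.3 ± 1.53 against 14.99 ± 2.21 CPM, 21.6% of the LNCaP95 level. All 6 were lower past both thresholds, and in all 6 both LN95(KO) libraries were below both LNCaP95 libraries. Over all fitted genes these shares were 9.13% and 39.9%. The stretch was marked out by these values, so both counts are a description. PCDHB15 had 366 and 334 reads in LNCaP95, against 46 and 40 in LN95(KO). Its log2 fold change was -2.99 (SE 0.15), from 19.0 ± 1.13 to 2.40 ± 0.288 CPM. PCDHB14 had 316 and 354 reads against 45 and 52. Its log2 fold change was -2.75 (SE 0.15), and the level went from 18.2 ± 1.56 to 2.70 ± 0.217 CPM. These were the PCDHB genes with most reads in LNCaP95, and in LN95(KO) each had fewer reads than PCDHB2, PCDHB5, PCDHB8 or PCDHB13.

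PCDHB12 was lower still by ratio, with 43 and 37 reads against 3 and 6, a log2 fold change of -3.08 (SE 0.40). PCDHB10 had 140 and 159 reads against 34 and 19, and a log2 fold change of -2.46 (SE 0.22). PCDHB13 had 277 and 300 reads against 117 and 88, and a log2 fold change of -1.46 (SE 0.14). The LN95(KO) libraries of PCDHB10 differed more from each other than those of PCDHB15, yet in both genes the groups stayed far apart. PCDHB11 had 117 and 105 reads against 48 and 40, and a log2 fold change of -1.30 (SE 0.19). All 6 are adhesion proteins of the same design, and none was close to its LNCaP95 level.

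The other 10 PCDHB genes, which precede this stretch on the chromosome and include PCDHB16, were a mixed group. Together they had 1062 and 980 reads in LNCaP95, against 707 and 756 in LN95(KO), or 55.5 ± 2.85 against 40.7 ± 1.05 CPM, which is 73.3% of the LNCaP95 level. Of the 9 fitted, 4 were lower past both thresholds, against 9.13% of all fitted genes. PCDHB16, which lies between PCDHB8 and PCDHB9, was the lowest of them, with 128 and 115 reads against 30 and 36 and a log2 fold change of -1.84 (SE 0.19). PCDHB4 had 65 and 44 reads against 26 and 19, a log2 fold change of -1.24 (SE 0.28). PCDHB3 had 17 and 30 against 5 and 12, a log2 fold change of -1.42 (SE 0.44), which rests on few reads and was -2.15 without LN95(KO) replicate 4. PCDHB1, first in the subcluster, had 21, 12, 6 and 6 reads and a log2 fold change of -1.41 (SE 0.47). The threshold was missed by PCDHB4 without LNCaP95 replicate 1 (-0.94), by PCDHB3 without LNCaP95 replicate 2 or LN95(KO) replicate 3 (both -0.95) and in DESeq2, and by PCDHB1 without LNCaP95 replicate 1, LN95(KO) replicate 3 or replicate 4 and in DESeq2. PCDHB6 was not fitted, with 20 and 8 reads against 3 and 2, but was fitted and lower past the thresholds without LNCaP95 replicate 2 or LN95(KO) replicate 3.

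PCDHB5 did not share the difference. It had 318 and 309 reads in LNCaP95, against 301 and 327 in LN95(KO) (log2 fold change 0.03, SE 0.10), with overlapping groups. PCDHB9, next to PCDHB10, had 34 reads in each LNCaP95 library and 37 in each LN95(KO) library, a log2 fold change of 0.15 (SE 0.24). The remaining 3 were lower by less than 2-fold, without overlap between groups, as were 39.9% of all fitted genes at any fold. PCDHB2 had 211 and 210 reads against 149 and 162 (log2 fold change -0.40, SE 0.12). PCDHB8 had 187 and 180 against 115 and 126 (log2 fold change -0.57, SE 0.13). PCDHB7 had 61 and 38 against 35 and 29 (log2 fold change -0.59, SE 0.27). Adjacent genes could thus differ widely: PCDHB9, with no lower estimate, lies between PCDHB16 at -1.84 and PCDHB10 at -2.46 on the log2 scale.

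**Figure D2:**
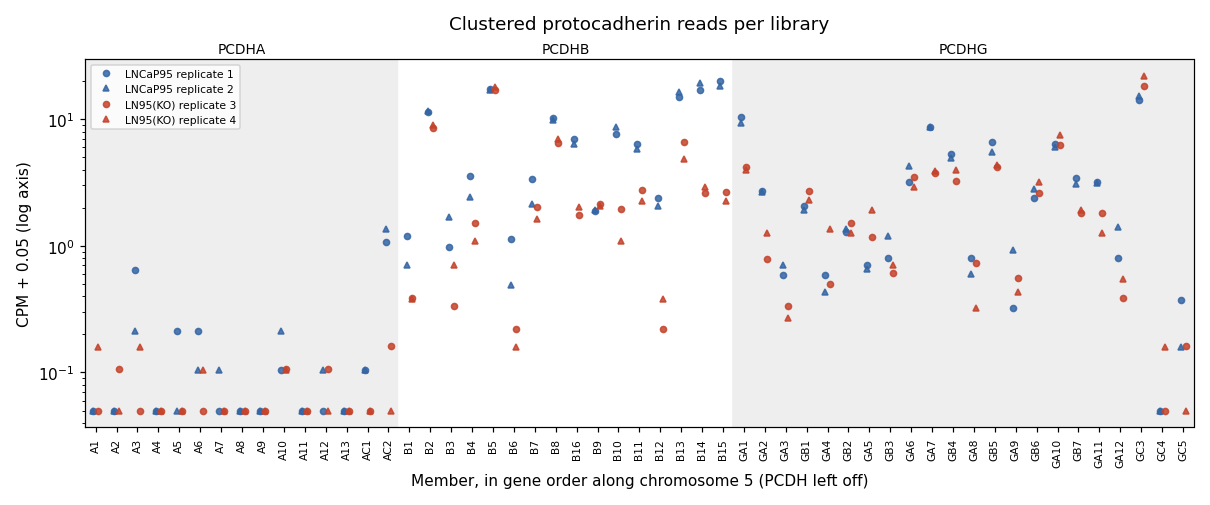
CPM plus 0.05 (y axis, log axis) of all 53 members in gene order (x axis) in each of the 4 libraries, with LNCaP95 in blue and LN95(KO) in red. The red points fall well below the blue ones from PCDHB10 to PCDHB15, while at PCDHB5 and PCDHB9 all 4 points lie together.

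The composition of the PCDHB output differed accordingly. PCDHB10 to PCDHB15 held 55.5% of PCDHB reads in LNCaP95 and 26.9% in LN95(KO). PCDHB15 alone went from 15.2% to 4.3% and PCDHB14 from 14.6% to 4.8%. PCDHB5, whose reads did not differ, went from 13.7% to 31.4% of the subcluster.

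**Figure D3:**
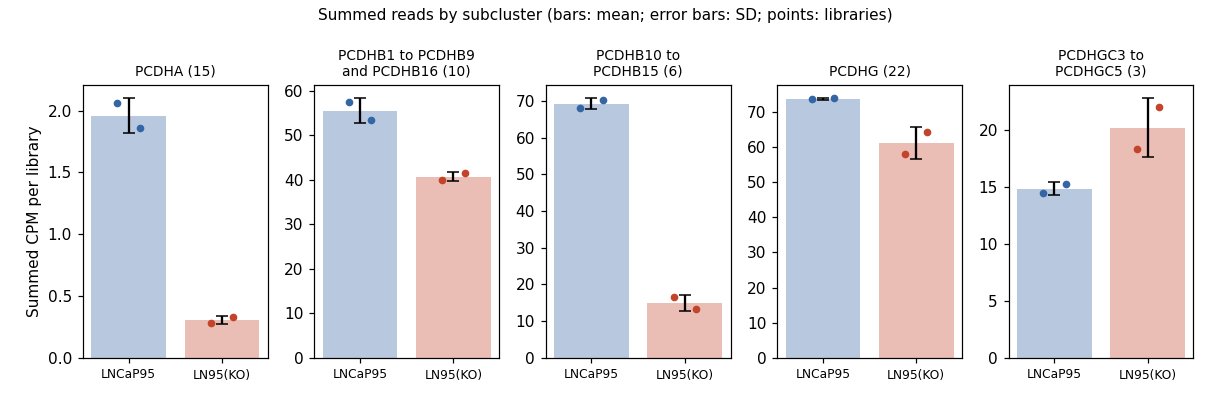
Summed CPM per library (y axis) for 5 sets of members, with the number of genes in brackets. Bars are means, error bars are SD over 2 libraries and points are libraries. The PCDHB10 to PCDHB15 bars stand at 69.3 and 14.99 CPM and the bars of PCDHGC3 to PCDHGC5 at 14.8 and 20.2 CPM.

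PCDHA was close to silent in both groups, with 38, 34, 5 and 6 reads over all 15 genes. PCDHAC2, the last C-type gene of the subcluster, had 19 and 24 reads in LNCaP95, against 2 and 0 in LN95(KO), and its part of PCDHA reads was 59.8% and 18.5%. The ratio of pooled scaled reads, LNCaP95 over LN95(KO), was 21.0 (exact 95% interval 5.48 to 179, counting error only). The fitted log2 fold change was -4.23 (SE 0.68) in edgeR and -4.39 (SE 1.30) in DESeq2. The edgeR value ran from -7.43 without LN95(KO) replicate 3 to -3.29 without replicate 4. PCDHAC1, the other C-type gene, had 1, 1, 0 and 0 reads. Without PCDHAC2, the other 14 genes had 19, 10, 3 and 6 reads in all, of which PCDHA3 had 11, 3, 0 and 2. At this depth no more can be said of the variable PCDHA genes.

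PCDHG reads were found from all 22 genes, and the members went in both directions. The PCDHGA, PCDHGB and C-type genes alternate or follow each other along the subcluster and use the same constant exons. The 12 PCDHGA genes summed to 37.9 ± 0.360 CPM in LNCaP95 and 24.2 ± 1.21 CPM in LN95(KO), a log2 ratio of -0.65. The 7 PCDHGB genes went from 21.0 ± 0.693 to 16.8 ± 0.698 CPM, a log2 ratio of -0.32. The 3 C-type genes went from 14.8 ± 0.542 to 20.2 ± 2.59 CPM, a log2 ratio of 0.44. PCDHGC3 alone held 14.6 and 20.1 CPM of these sums.

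Of 9 PCDHGA genes fitted, 5 were lower past both thresholds and 1 was higher, against 9.13% and 8.86% of all fitted genes. PCDHGA1, first in the subcluster, had 190 and 170 reads in LNCaP95, against 73 and 71 in LN95(KO) (log2 fold change -1.29, SE 0.15). PCDHGA7 had 158 and 157 reads against 66 and 70, a log2 fold change of -1.18 (SE 0.15). These were the PCDHGA genes with most reads in LNCaP95, and in both the replicates lay close together. PCDHGA2 had 49 and 48 reads against 13 and 22, a log2 fold change of -1.43 (SE 0.28). PCDHGA11 had 58 and 57 against 31 and 22, a log2 fold change of -1.08 (SE 0.25). PCDHGA12 had 14 and 25 against 6 and 9, and -1.33 (SE 0.45) on the same scale. PCDHGA11 and PCDHGA12 missed the thresholds without LN95(KO) replicate 4 and in DESeq2, and PCDHGA12 also without LNCaP95 replicate 2 or LN95(KO) replicate 3.

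PCDHGA10 and PCDHGA6 overlapped between the groups. PCDHGA10 had 117 and 109 reads against 109 and 137, a log2 fold change of 0.15 (SE 0.15). PCDHGA6 had 58 and 77 against 61 and 52, a log2 fold change of -0.22 (SE 0.21). PCDHGA5 was the only member higher past the thresholds, with 12 and 11 reads against 20 and 34 and a log2 fold change of 1.25 (SE 0.37). That rested on LN95(KO) replicate 4, without which it was 0.85 and under the thresholds, and DESeq2 did not call it. Its neighbour PCDHGA4 was not fitted and was likewise highest in that library (10, 7, 8 and 24 reads), and without LN95(KO) replicate 3 it was higher past the thresholds. The other members, PCDHGA3, PCDHGA8 and PCDHGA9, had 4 to 16 reads per library.

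None of the 7 PCDHGB genes, all fitted, passed the thresholds. PCDHGB7 was the lowest, with 62 and 56 reads in LNCaP95, against 31 and 34 in LN95(KO) (log2 fold change -0.83, SE 0.22). PCDHGB5 had 121 and 100 reads against 73 and 79 (log2 fold change -0.51, SE 0.17). PCDHGB4 had 97 and 90 against 57 and 71 (log2 fold change -0.51, SE 0.18). In these 3 the groups did not overlap, as in PCDHGB3, which had 10 to 21 reads per library. Over all fitted genes, both LN95(KO) libraries were below both LNCaP95 libraries in 39.9%. PCDHGB1 was above its LNCaP95 level in both LN95(KO) libraries, with 37 and 34 reads against 47 and 41 (log2 fold change 0.34, SE 0.24). PCDHGB6 had 43 and 51 reads against 45 and 57 (log2 fold change 0.15, SE 0.22), and PCDHGB2 had 22 to 26 reads in every library, so that both differed by less than the spread between libraries.

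Among the C-type genes of PCDHG, PCDHGC3 had 261 and 277 reads in LNCaP95, against 323 and 400 in LN95(KO) (log2 fold change 0.46, SE 0.11). It was the PCDHG gene with most reads in both groups, and its part of the PCDHG reads went from 19.8% to 32.8%. It passed the adjusted p threshold but not a 2-fold difference. PCDHGC4 had 0 reads in 3 libraries and 2 in LN95(KO) replicate 4, and PCDHGC5 had 6, 2, 2 and 0. Of the C types, PCDHAC2 was thus lower and PCDHGC3 higher by less than 2-fold, while the others had at most 6 reads per library.

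Levels were compared between members as CPM per kb of exon that a gene shares with no other gene, given as mean ± SD. In LNCaP95 the order was PCDHB5 (5.86 ± 0.0871), PCDHB15 (5.30 ± 0.314), PCDHB2 (4.98 ± 0.0103), PCDHGC3 (4.50 ± 0.214), PCDHB14 (4.29 ± 0.367), PCDHB8 (3.95 ± 0.0850) and PCDHB13 (3.10 ± 0.192). Among neighbours in this order the libraries of PCDHGC3 and PCDHB14 overlapped, and those of the other pairs did not. In LN95(KO) the order was PCDHGC3 (6.17 ± 0.798), PCDHB5 (6.003 ± 0.222), PCDHB2 (3.76 ± 0.141), PCDHB8 (2.65 ± 0.114), PCDHGB5 (1.56 ± 0.0534) and PCDHGA10 (1.53 ± 0.214). There the libraries of PCDHGC3 and PCDHB5 overlapped, as did those of PCDHGB5 and PCDHGA10. PCDHB15 and PCDHB14 stood at 0.667 ± 0.0801 and 0.635 ± 0.0511 in LN95(KO). PCDHB5, PCDHB2, PCDHB8 and PCDHGC3 stood high in both groups, while PCDHB15 and PCDHB14 did so in LNCaP95 alone. The order depends on the length used. Per kb of all exons, shared ones included, PCDHB2 came to 2.79 in LNCaP95 and 2.11 in LN95(KO) and PCDHGC3 to 2.69 and 3.70. Both then stood below PCDHB13 (3.10) in LNCaP95, and in LN95(KO) PCDHGC3 stood below PCDHB5 (5.12) and PCDHB2 below PCDHB8 (2.44).

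Genes around the clusters were compared next, to see how far along the chromosome lower counts reached. The 39 other protein-coding genes within 1 Mb of the outermost members or between them included 29 that were fitted. Of these, 2 were lower and 0 higher past the thresholds, with a median log2 fold change of 0.04. Over all fitted genes 9.13% were lower and 8.86% higher. Without the fold criterion 6 of the 29 were lower and 9 higher at an adjusted p under 0.05 in edgeR. Of all 15626 genes fitted, 9349 passed in that way. RELL2, which lies after the clusters, had 92 and 81 reads in LNCaP95, against 33 and 26 in LN95(KO) (log2 fold change -1.51, SE 0.22). IGIP, which lies before them, had 398 and 368 against 154 and 163 (log2 fold change -1.24, SE 0.11). TAF7, a subunit of the general transcription factor TFIID, sits between PCDHB and PCDHG and had 2496 and 2477 reads against 2031 and 2094, a log2 fold change of -0.24 (SE 0.05). DIAPH1, an actin-nucleating formin just past PCDHG, had 3223 and 3181 reads against 4666 and 4931, a log2 fold change of 0.62 (SE 0.05). Over the 748 genes fitted on chromosome 5 the median was -0.02, with 90 lower and 65 higher.

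**Figure D4:**
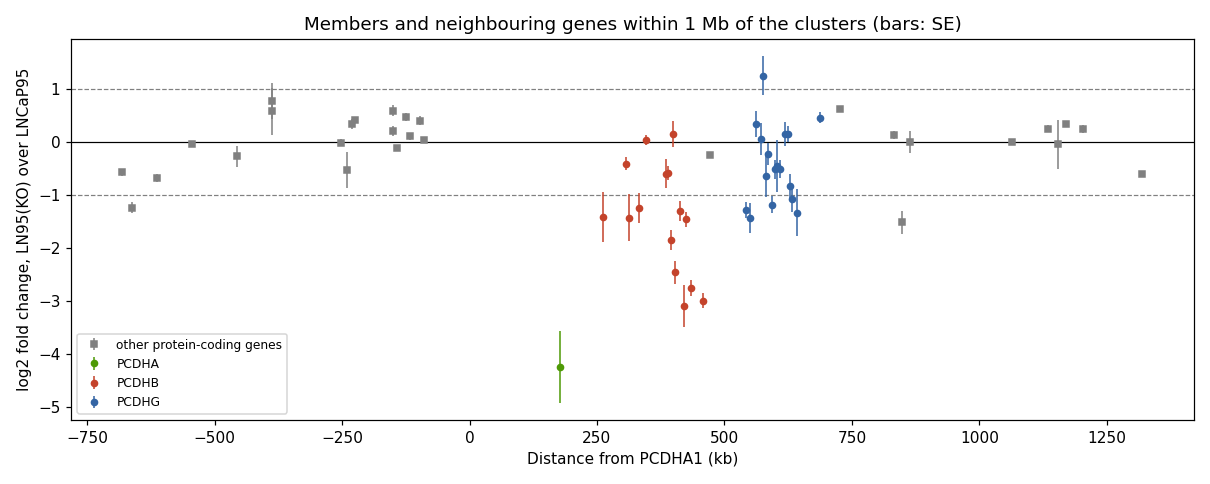
Log2 fold change of LN95(KO) over LNCaP95 (y axis, bars are approximate standard errors) against distance from PCDHA1 in kb (x axis). Fitted members are coloured by subcluster, and other protein-coding genes within 1 Mb of the clusters are grey squares. Grey squares scatter around 0 on either side of the clusters, and TAF7, between PCDHB and PCDHG, stands at -0.24.

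Protocadherins outside the clusters were mostly too low to compare. Of 12 such genes, 3 were fitted. PCDH19, an adhesion protein known for its role in brain development, had 154 and 170 reads in LNCaP95, against 4 and 3 in LN95(KO) (log2 fold change -5.45, SE 0.28, adjusted p 2.82e-11 in edgeR). PCDH1, which lies within 1 Mb of the clusters, had 1781, 1854, 1791 and 1747 reads and a log2 fold change of -0.01 (SE 0.06), a sign that flips with library totals in place of TMM factors. PCDH12 had 8 to 12 reads per library. PCDH18, which had too few reads to be fitted, had 1, 0, 7 and 13, a ratio of pooled scaled reads, LN95(KO) over LNCaP95, of 20.5 (exact 95% interval 3.27 to 848, counting error only). It is given because it went the other way from PCDH19, and it passed the thresholds as higher without the filter or without either LNCaP95 library.

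All 24 chromatin factors known to act at these clusters were fitted, and 3 were higher and 1 lower past the thresholds. Over all fitted genes, 8.86% were higher and 9.13% lower. TET1, an enzyme that oxidises methylated cytosine, had 3 and 9 reads in LNCaP95, against 28 and 26 in LN95(KO) (log2 fold change 2.18, SE 0.43, adjusted p 3.33e-04 in edgeR). That value was 1.60 without LNCaP95 replicate 1 and 3.15 without replicate 2. UHRF1, which recruits the maintenance methyltransferase, had 150 and 116 reads against 369 and 499, a log2 fold change of 1.74 (SE 0.14). DNMT3B, a de novo DNA methyltransferase, had 102 and 121 reads against 272 and 303 (log2 fold change 1.40, SE 0.13). DNMT3A, the other de novo enzyme, had 325 and 303 against 162 and 112 (log2 fold change -1.16, SE 0.14), and without LN95(KO) replicate 4 it was -0.90 and no longer past 2-fold. CTCF had 1548, 1482, 1273 and 1292 reads, a log2 fold change of -0.21 (SE 0.06). The cohesin subunits RAD21 (0.09), SMC3 (-0.12) and SMC1A (0.71) and the silencing factor SMCHD1 (0.53) stayed within 2-fold on the log2 scale. The cohesin regulator PDS5A had the highest CPM of the list and a log2 fold change of -0.40 (SE 0.05). DNA methylation and CTCF binding were not measured, so the part of these genes in the protocadherin values was not tested.

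Of the 21 proteases and signalling proteins that act with clustered protocadherins, all were fitted, 3 were lower and 0 higher past the thresholds. The shares over all fitted genes were 9.13% lower and 8.86% higher. CYFIP2, a subunit of the WAVE actin-regulating complex that protocadherin tails can bind, had 1828 and 1736 reads in LNCaP95, against 99 and 104 in LN95(KO) (log2 fold change -4.10, SE 0.08). RET, a receptor tyrosine kinase, had 113 and 120 reads against 6 and 16 (log2 fold change -3.36, SE 0.28, and -4.19 without LN95(KO) replicate 4). FYN, a Src-family kinase, had 388 and 404 against 158 and 140 (log2 fold change -1.38, SE 0.11). ADAM10, a protease that cuts protocadherins, stood at 0.02 on the same scale, and WASF2, the WAVE gene with the highest CPM of the list, at 0.14.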

How the data were processed

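The deposited values are raw read counts per gene from the authors, who aligned reads to hg19 with HISAT2 2.1.0 and counted them with HTSeq on GENCODE release 29 without use of strand. Of 60880 genes, 59858 identifiers were matched to GENCODE release 44 on GRCh37 and 1022 were not. The 5 summary lines of each library (23.8% to 27.5% of entries) were kept out of library sizes. Counts were fitted over all genes with the edgeR quasi-likelihood test (version 4.0.16, R 4.3.3), with TMM factors, robust estimation and filterByExpr (minimum count 10, minimum total 15), with Benjamini-Hochberg adjustment over 15626 genes. The scripts were tested on simulated data. Thresholds were an adjusted p of 0.05 and a fold change of 2, as in the study, which used DESeq2 (here 1.42.0, as an alternative). With 2 libraries per group, a two-sided permutation p could not go below 0.333 and none was used. The coefficient of variation shared across genes was 4.27%. Intervals and floors cover counting error only. Each edgeR SE was taken as the size of the log2 fold change over the square root of its F statistic, and is approximate. DESeq2 gave larger SEs for PCDHAC2 (1.30), PCDHB12 (0.75) and PCDHB15 (0.25).

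The members and gene lists were chosen with earlier results of these data known. Named members are the C types and those with at least 20 scaled reads on average in a group. From each list, the called genes with the largest rise and fall and the gene with the highest CPM are named. Members named beyond this were added for completeness, and UHRF1, DNMT3B, FYN, CTCF, RAD21, SMC3, SMC1A, SMCHD1, ADAM10, TAF7, PCDH18, LUM and PDGFRB after their values were seen. Some genes of the lists are counted but not reported here by name. Unshared exon length left out bases under an exon of any other counted gene, and levels per kb needed at least 500 such bases. Alternatives were RLE factors, library totals, no filter, each library left out in turn, DESeq2, no fold criterion and length over all exons.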

Additional observations from a re-analysis of the deposited data

How the results depend on the processing

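No paired analysis was possible because replicates 1 and 2 are LNCaP95 and 3 and 4 LN95(KO). The lower PCDHB members (8 to 12) and the subcluster log2 ratios kept their direction in each alternative run. Leaving out each library in turn gave -2.79 to -2.57 for PCDHA, -1.19 to -1.14 for PCDHB and -0.35 to -0.20 for PCDHG, and library totals moved PCDHB to -1.11. Without the filter 2 PCDHA genes were lower. Lower PCDHG genes numbered 3 in DESeq2, 8 without the fold criterion and 3 to 5 without each library in turn. Higher PCDHG genes numbered 0 in DESeq2, 2 without the fold criterion and 0 to 2 without each library in turn. Without the fold criterion 9349 of the 15626 genes fitted passed (2811 in the report). Among them were 10 chromatin factors higher and 8 lower, 3 partners higher and 10 lower, and 9 flanking genes higher and 6 lower. Leaving out libraries gave 0 to 1 lower chromatin factor (0 without LN95(KO) replicate 4), 0 to 1 higher flanking gene (1 without LNCaP95 replicate 2) and 0 to 1 higher non-clustered protocadherin (PCDH18, without either LNCaP95 library), and without the filter that last count was 1. Signs flipped in values near 0 when libraries were left out in turn: PCDHGB2 (-0.080 to 0.20), PCDHGA6 (-0.42 to 0.00027), PCDHGB6 (-0.0040 to 0.29) and PCDH1 (-0.042 to 0.038), and PCDH1 also with library totals (0.050). The cause was not tested. Where a group was left with 1 library, its spread was taken to be like that of the other group. With under 20 reads in most libraries, variable PCDHA genes and low PCDHG genes were not resolved at this depth.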

Other observations

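Other transcripts inside the locus were counted as well. PCDHB18P, a pseudogene between PCDHB14 and PCDHB15 (chr5:140614123-140616490), had 38 and 49 reads in LNCaP95, against 8 and 5 in LN95(KO) (edgeR log2 fold change -2.69, SE 0.36). PCDHB19P, its neighbour, had 11, 6, 3 and 1 reads, and PCDHB17P had 3, 3, 0 and 0. The pseudogenes PCDHGB8P (5, 5, 7 and 1 reads) and PCDHGB9P (2, 3, 3 and 3) lie in PCDHG. ENSG00000272070, a long noncoding RNA just before PCDHGA1 (chr5:140705777-140708930), had 92 and 97 reads against 45 and 42 (edgeR log2 fold change -1.08, SE 0.19). It is listed beside PCDHGA1 (-1.29). Pseudogenes can exchange reads with the intact genes they resemble, and these genes were named after their values were seen. All lie in the locus chosen on this comparison, so their values are a description and no test of them is given.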
